A study of Mus musculus with 24 samples.

Results

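The genes described here encode the nuclear part of oxidative phosphorylation, measured by RNA-seq in mouse liver. They were chosen by name: rows of the count table whose symbol begins with Ndufa, Ndufb, Ndufc, Ndufs or Ndufv, Sdha to Sdhd, Uqcr, Cox4 to Cox8 or Atp5, with at least 1 CPM (counts per 1000000 of the library total) in all 24 libraries. Of 92 symbols that matched, among 23240 rows, 84 met this minimum. They comprise 41 genes of complex I, 6 of complex II, 8 of complex III, 12 of complex IV and 16 of complex V. Structural subunits make up 74 of the 84. The other 10 are assembly factors (Ndufaf1 to Ndufaf4 and Atp5sl for complex I, Sdhaf1 and Sdhaf2 for complex II, Cox7a2l for complex IV), Atp5s, and Cox4nb, a neighbour of Cox4i1 that matched by its symbol and belongs to no respiratory complex.

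Complexes I to IV form the electron transport chain of the inner mitochondrial membrane. Complex I takes electrons from NADH and complex II from succinate, ubiquinol passes them to complex III, and cytochrome c to complex IV, which reduces oxygen. Protons pumped by complexes I, III and IV return through complex V, the ATP synthase. Most subunits are encoded in the nucleus and imported, a smaller set is encoded by mitochondrial DNA, and hepatocytes, which make glucose and urea and oxidise fatty acids, are rich in mitochondria.

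The series holds 24 livers of female NSG mice, which lack mature T, B and natural killer cells, aged 8 weeks per the labels. Each mouse was given extracellular vesicles (EVs, membrane particles shed by cells, 10 µg or so per dose) or phosphate-buffered saline (PBS) by tail vein, with 2 doses a week over 5 weeks. The liver was taken 2 days after the final dose. The 4 groups of 6 libraries are MDA-MB-231 EV (vesicles of a metastatic human breast cancer line), MCF10A/miR-122 EV (vesicles of MCF10A cells carrying the name of miR-122, a microRNA abundant in liver), MCF10A EV (vesicles of a non-tumorigenic human breast epithelial line) and PBS. How the miR-122 cells were made is not given in the sources used here. The names of the 6 libraries labelled MCF10A/miR-122 EV point to MDA-MB-231 vesicles, and those of the 6 labelled MDA-MB-231 EV to MCF10A/miR-122 vesicles, so these 12 libraries go against their labels. Groups are called by their treatment label. If the library names are right, the values of these 2 groups against PBS or MCF10A EV change places, so both groups' values are given for the genes that edgeR called.

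Library totals ranged from 21.3 to 33.7 M counts. The 24 libraries formed 2 sets of 12 that coincide with treatment. Serpina3a, of the serpin family, had 0.285 to 5.85 CPM in MDA-MB-231 EV and MCF10A/miR-122 EV libraries, against 109 to 325 CPM in MCF10A EV and PBS libraries. In the comparisons that cross the sets, library set and treatment cannot be told apart; those of MDA-MB-231 EV with MCF10A/miR-122 EV and of MCF10A EV with PBS lie within a set. Hepatocyte markers were abundant, all 8 of them detected and summing to 106000 to 144000 CPM. Markers of muscle, a tissue rich in mitochondria, summed to at most 5.371 CPM, and those of fat to at most 0.1615 CPM. Fewer cells of a type and less RNA per cell cannot be told apart in such bulk samples.

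The members together took 0.896% to 1.166% of all counts in a library. Their mean levels ran from 3.67 to 1075 CPM, with a median of 84.2 CPM. The minimum of 1 CPM in every library, part of their choice, was met by 11207 of the 13773 genes tested. Per kilobase of transcript, the median level was 191 CPM per kb for complex IV, 162 for complex III, 155 for complex V, 89.0 for complex II and 66.2 for complex I. Atp5b, the catalytic beta subunit of the ATP synthase, was highest at 561 CPM per kb, followed by Atp5g3, a gene of the proton-carrying c subunit, at 467 and by Ndufa4, now counted as a subunit of complex IV, at 411. The lowest members were Atp5s, at 2.38 CPM per kb, and the complex II assembly factor Sdhaf1, at 3.24, with at least 2.72 and 4.98 CPM of the library total in every library. Levels per kb rest on transcript lengths of a mouse annotation of another build than that of the counts.

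**Figure D1:**
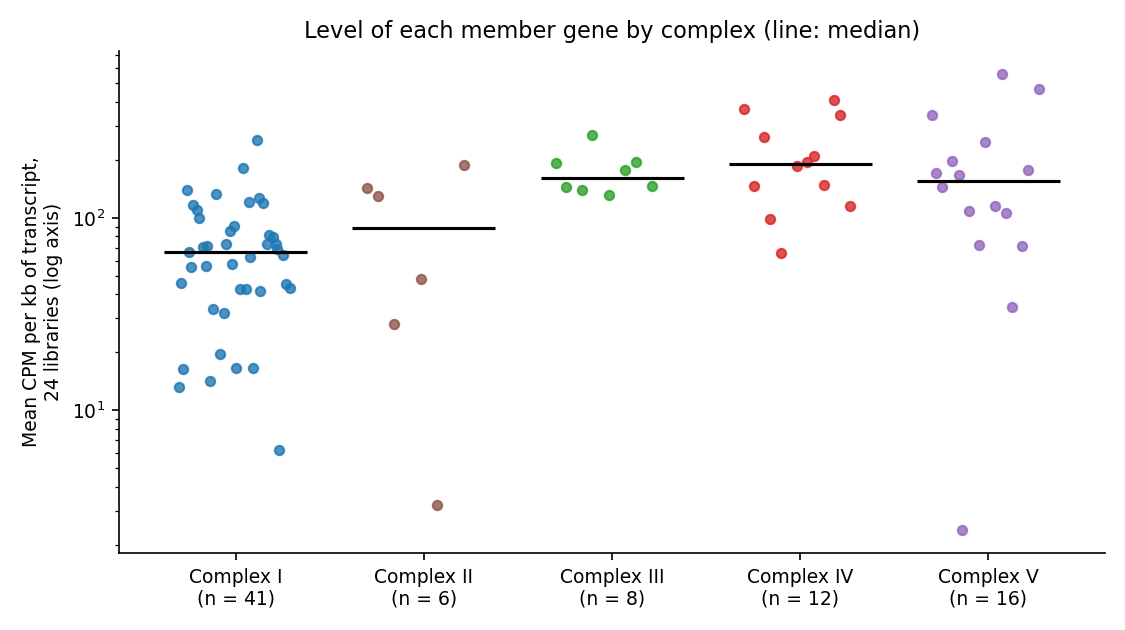
Each point is the mean level of a member gene over the 24 libraries, in CPM per kb of transcript on a log axis, by complex, and the line is the median of the complex. Complexes III, IV and V had medians of 155 to 191 CPM per kb, above the 66.2 of complex I, and Cox4nb, which belongs to no complex, is not drawn.

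The 8 matching symbols below the minimum were mostly tissue-restricted or paralogous forms. Ndufa4l2, a paralog of Ndufa4 induced by hypoxia, was just outside it, with a median of 0.981 CPM of the library total and 11 of 24 libraries at 1 or more, and Cox7a1, the heart and muscle form of subunit 7a, had a median of 0.703 with 3 of 24 libraries there. Cox6b2 and Cox4i2, the testis and lung forms of their subunits, had medians of 0.320 and 0.202 CPM. The muscle forms Cox6a2 and Cox8b had at most 2 counts in any library, and Cox7b2 and Cox8c had none in any of the 24. The ubiquitous or liver forms carried the signal: mean levels per kb were 369 for Cox4i1, 342 for Cox6a1, 187 for Cox6b1, 148 for Cox7a2 and 262 for Cox8a. Of the 3 genes of the c subunit, which encode the same mature protein, Atp5g3 stood at 467 CPM per kb, Atp5g2 at 109 and Atp5g1 at 34.2. The order of the last 2 rests on the transcript lengths used, 586 bases for Atp5g2 and 2675.5 for Atp5g1. Without division by length, Atp5g1 was the higher, at a mean of 91.5 CPM against 63.8 CPM for Atp5g2.

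Differences between the groups were small for nearly all members. The ratio of the highest to the lowest group mean had a median of 1.141 over the 84 genes and was under 1.2 for 71 of them. Its largest value was 1.346, for Ndufaf4. The PBS group had the lowest mean of the 4 groups for 65 of the 84 genes: 33 of 41 in complex I, 3 of 6 in complex II, 7 of 8 in complex III, 11 of 12 in complex IV and 11 of 16 in complex V. MCF10A/miR-122 EV had the highest mean for 36 genes, MCF10A EV for 35, MDA-MB-231 EV for 12 and PBS for 1. This order depends on the scaling of the libraries, described with the library totals.

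Against PBS, no member passed the threshold (an adjusted p under 0.05 over all genes tested, edgeR's quasi-likelihood test) with MDA-MB-231 EVs, where 11.7% of the 13773 genes tested did (5.33% higher and 6.34% lower). At an unadjusted p under 0.05 there were 11 members (13.1%), against 26.9% of all genes. DESeq2 and limma-voom also called none, against 14.6% and 12.1% of all genes. With MCF10A/miR-122 EVs 2 members rose and none fell, against 8.35% of all genes that rose and 9.53% that fell (17.9% in either direction). The unadjusted count was 21 members (25.0%), against 31.4% of all genes. DESeq2 called 5 members and limma-voom 2, against 20.2% and 17.5% of all genes. With MCF10A EVs, the comparison within a library set, no member passed, where 1.07% of all genes did (0.37% higher and 0.697% lower). The unadjusted count was 15 members (17.9%), against 17.3%, and neither DESeq2 nor limma-voom called any. The share of members called was thus below that of all genes with MDA-MB-231 EVs and MCF10A/miR-122 EVs, and near it with MCF10A EVs.

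The intervals limit what could have been missed. With MDA-MB-231 EVs and with MCF10A EVs, the 95% confidence intervals of all 84 members lay within a 1.5-fold change in either direction, and with MCF10A/miR-122 EVs those of 83 did, Ndufaf4 being the exception. The median standard error of a member's log2 fold change was 0.096 in each of these comparisons. Intervals within 1.2-fold were reached by 28 members with MDA-MB-231 EVs, 24 with MCF10A/miR-122 EVs and 21 with MCF10A EVs, so changes of 10% to 20% could not be told from none for most genes.

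**Figure D2:**
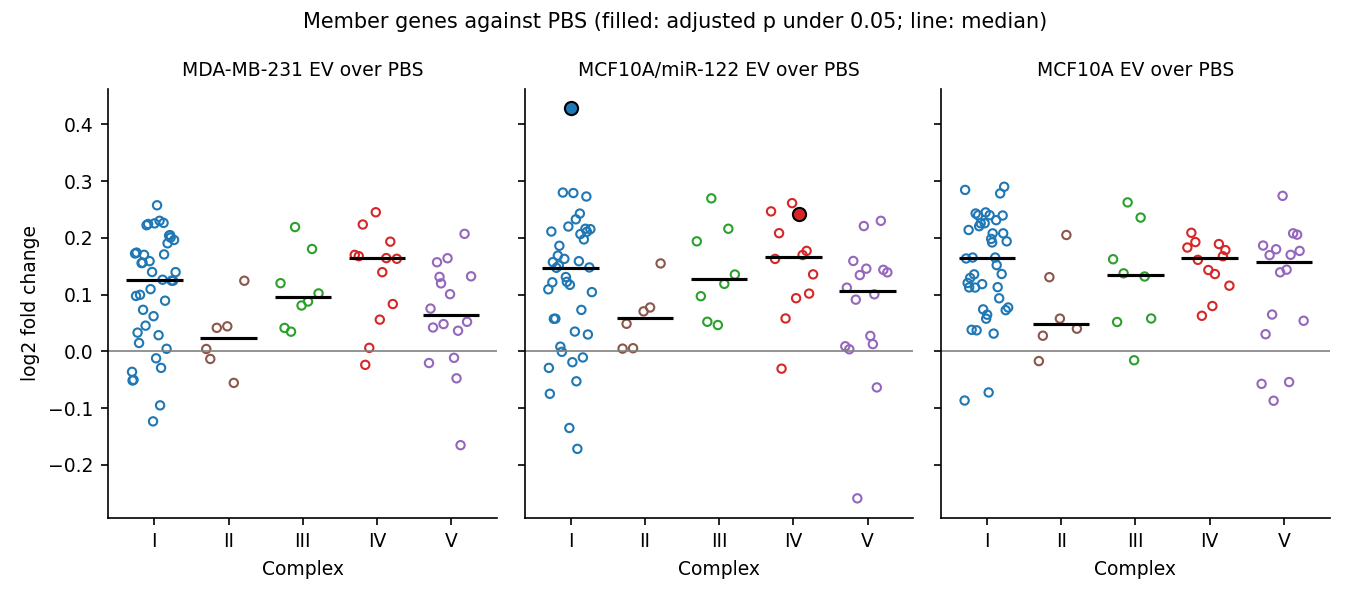
Each point is the log2 fold change of a member gene against PBS for MDA-MB-231 EV (left), MCF10A/miR-122 EV (middle) and MCF10A EV (right), by complex, with a line at the median and filled points for adjusted p under 0.05. Most points lie between 0 and 0.3, complex II lies nearest to 0 in each panel, and the filled points are Ndufaf4 (complex I) and Cox5a (complex IV).

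The members leaned the same small way in all 3 comparisons, which share the PBS libraries and are not independent. The median log2 fold change was 0.11 with MDA-MB-231 EVs, 0.13 with MCF10A/miR-122 EVs and 0.14 with MCF10A EVs, while the median over all genes tested was 0.0034, 0.0010 and 0.0077 in the same order. Fold changes above 0 were found for 69, 73 and 76 of the 84 members in that order, against 50.6%, 50.2% and 51.7% of all genes. Complex IV had medians of 0.16, 0.17 and 0.16, complex I of 0.13, 0.15 and 0.16, complex III of 0.095, 0.13 and 0.13, and complex V of 0.064, 0.11 and 0.16. Complex II, the only one with no mitochondrially encoded partner, had 0.023, 0.059 and 0.049. These medians are descriptions of lists that share libraries, and differences between complexes were not tested.

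The lean moved with transcript length. The members were short, with a median transcript of 867.75 bases against 2752 for all genes tested, and complex II was the longest at 1860.5. The 49 members under 1 kb had medians of 0.14 with MDA-MB-231 EVs, 0.16 with MCF10A/miR-122 EVs and 0.18 with MCF10A EVs, and the 35 members of 1 kb or more had 0.052, 0.077 and 0.063. The 748 other genes under 1 kb that were at 1 CPM or more in every library, without ribosomal protein genes, had medians of 0.077, 0.053 and 0.13, and 5018 genes of 3 kb or more had -0.0078, 0.0058 and -0.038. The 77 cytosolic ribosomal protein genes, also short, had 0.063, 0.10 and 0.22. The 76 mitochondrial ribosomal protein genes had 0.051, 0.012 and 0.091. The 8 hepatocyte markers had 0.15, 0.24 and 0.19 in the same order. Of these markers, 1 rose past the threshold with MDA-MB-231 EVs, 1 with MCF10A/miR-122 EVs and 0 with MCF10A EVs. The part of transcript length or of hepatocyte content in the members' values was not tested.

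**Figure D3:**
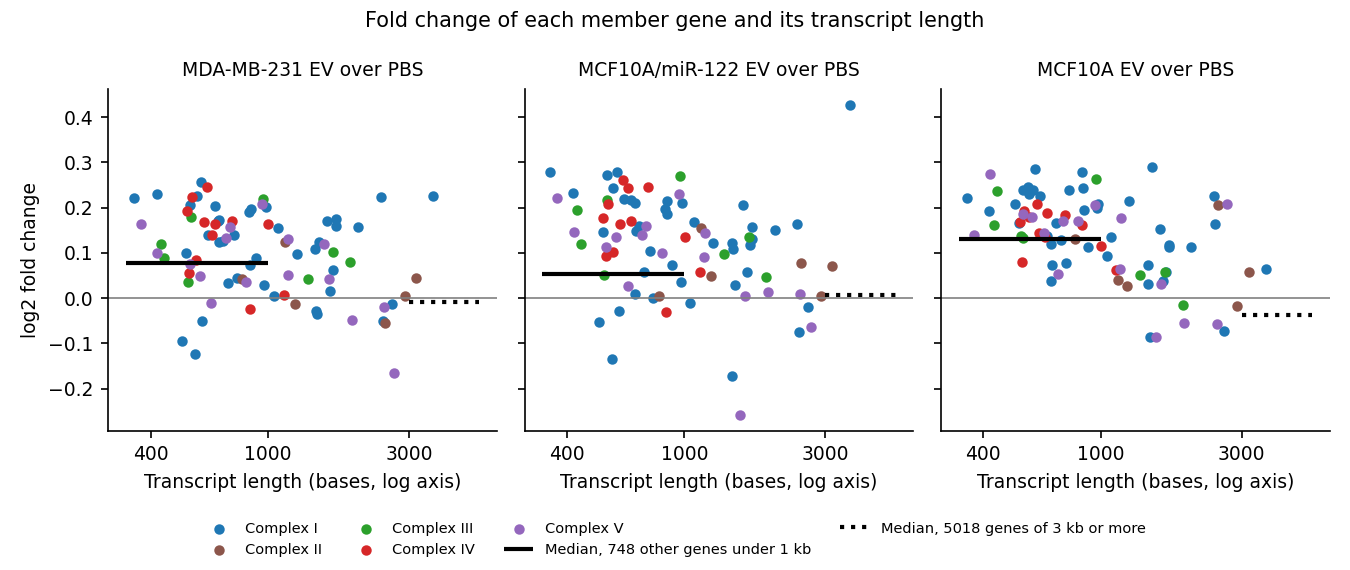
Each point is a member gene, its transcript length on a log axis and its log2 fold change against PBS for MDA-MB-231 EV (left), MCF10A/miR-122 EV (middle) and MCF10A EV (right), coloured by complex. The solid line is the median of 748 other genes under 1 kb (0.077, 0.053 and 0.13 from left to right), the dotted line that of 5018 genes of 3 kb or more, and most members above 0.1 are shorter than 1 kb.

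The scaling of the libraries set the sign of some of these medians. The factors of the trimmed-mean scaling were 0.888 to 1.003 in MDA-MB-231 EV, 0.938 to 1.041 in MCF10A/miR-122 EV, 0.929 to 1.032 in MCF10A EV and 0.999 to 1.103 in PBS libraries. With plain library totals, the median over all genes was -0.125, -0.0917 and -0.0937 against PBS, and that of the members was -0.022, 0.030 and 0.048. The members thus stood above the median gene with either scaling. With MDA-MB-231 EVs their median turned negative on library totals, where 35 of 84 members were above 0. The medians of complex II turned negative on library totals in all 3 comparisons (-0.104 with MDA-MB-231 EVs, -0.034 with MCF10A/miR-122 EVs and -0.047 with MCF10A EVs). With MDA-MB-231 EVs those of complexes I (-0.00083), III (-0.034) and V (-0.063) did too, while complex IV had 0.035. In raw shares of all counts, the members took 0.979% to 1.044% (median 0.990%) in MDA-MB-231 EV, 0.983% to 1.166% (median 1.020%) in MCF10A/miR-122 EV, 0.896% to 1.125% (median 1.058%) in MCF10A EV and 0.982% to 1.08% (median 1.048%) in PBS libraries. These ranges overlap between all 4 groups.

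Within each group the members of complexes I, III, IV and V moved together from library to library. As the median deviation from each gene's own mean over the 24 libraries (log2), all members lay at -0.130 to 0.140 in MDA-MB-231 EV, -0.193 to 0.341 in MCF10A/miR-122 EV, -0.141 to 0.163 in MCF10A EV and -0.176 to 0.052 in PBS. The highest library was MCF10A/miR-122 EV replicate 5, at 0.339 for complex I, 0.391 for complex III, 0.422 for complex IV and 0.297 for complex V, while complex II was at -0.0056 there and the other genes under 1 kb at 0.206. Without this library the median log2 fold change of MCF10A/miR-122 EV over PBS was 0.061, against 0.13 with it. The median residual SD of a member within groups was 0.169 on the log2 scale, against 0.187 for all genes at 1 CPM or more in every library.

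**Figure D4:**
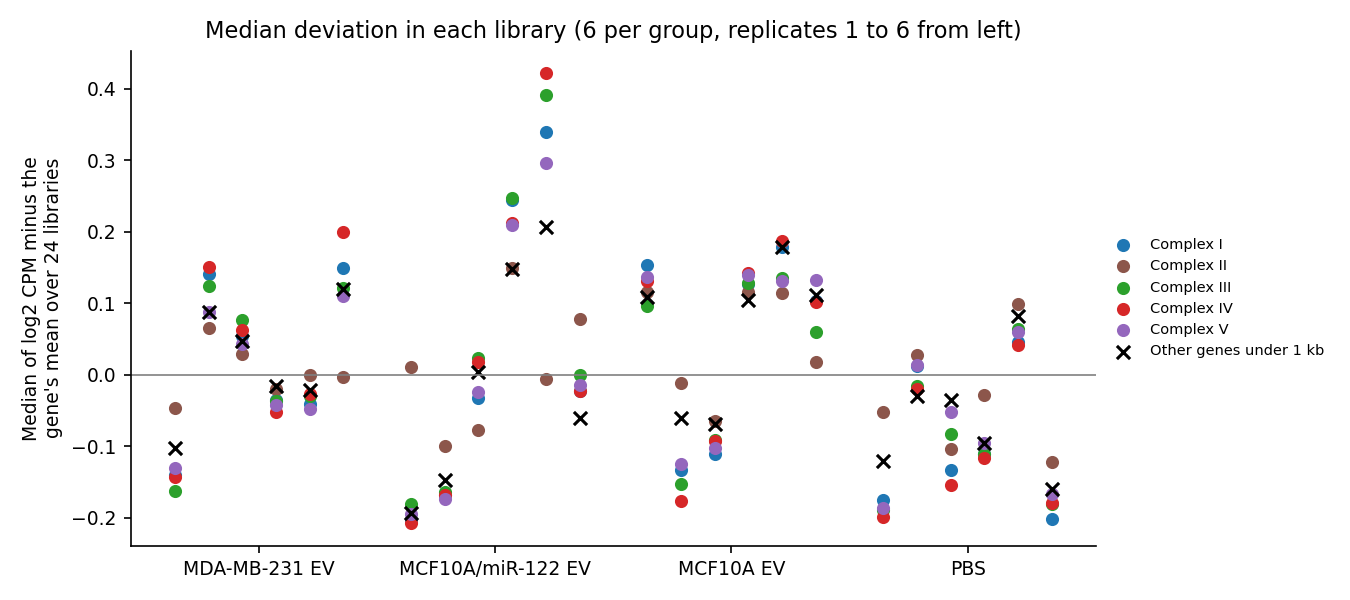
Each column is a library, 6 per group, with the median over the members of each complex of log2 CPM minus the gene's mean over 24 libraries, and a cross for the 748 other genes under 1 kb. MCF10A/miR-122 EV replicate 5 reaches 0.422 for complex IV with complex II at -0.0056, and in most other libraries the complexes and the crosses lie close together.

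Ndufaf4 and Cox5a were the members that rose with MCF10A/miR-122 EVs against PBS. Ndufaf4 encodes an early assembly factor of complex I. It was at 51.1 to 104 CPM (median 67.4) in MCF10A/miR-122 EV livers, against 39.8 to 62.1 CPM (median 54.0) in PBS livers, with 5 of 6 libraries above the PBS median. The groups overlapped, and the top value came from a single library, MCF10A/miR-122 EV replicate 5. The log2 fold change was 0.43 (SE 0.133, adjusted p = 0.02725), and without that library it was 0.28 (adjusted p = 0.09099). It also missed the threshold without MCF10A/miR-122 EV replicate 6, without PBS replicate 1 and without PBS replicate 3. With the identities of the library names it was 0.23 (adjusted p = 0.2818). MDA-MB-231 EV livers had 51.7 to 72.4 CPM (median 61.4) and MCF10A EV livers 50.3 to 61.6 CPM (median 54.7), and neither differed from PBS past the threshold (adjusted p = 0.2818 and 0.8344).

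Cox5a encodes a nuclear subunit of complex IV. It was at 128 to 167 CPM (median 142) in MCF10A/miR-122 EV livers, against 105 to 141 CPM (median 124) in PBS livers. All 6 EV libraries lay above the PBS median, and the ranges overlapped. The log2 fold change was 0.24 (SE 0.080, adjusted p = 0.03698), and it missed the threshold in 6 of the 12 fits that left out a library, with adjusted p up to 0.09367. With the library names' identities it was 0.14 (adjusted p = 0.2672). On plain library totals Ndufaf4 was at 0.34 (adjusted p = 0.06647) and Cox5a at 0.15 (adjusted p = 0.1479), and 2 other members passed as lower. In Cox5a 13.54% of 32-base words occur in another gene, so its counts are uncertain where reads of copies were split. DESeq2 called 5 members, all higher: Ndufaf4, Cox5a, Uqcrq, Cox4i1 and Ndufb8. With a library left out, edgeR called 0 to 11 of the 84 members, the most without MCF10A/miR-122 EV replicate 1. With all libraries it called 2, where 17.9% of all genes passed. The share of all genes in the fits that left out a library is not given here.

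Alongside these members, the Kupffer cell markers of the liver's macrophages were higher with MCF10A/miR-122 EVs, and so was Saa1, an acute-phase gene, at 339 to 823 CPM against 16.2 to 49.8 CPM with PBS, while MDA-MB-231 EV livers had 23.2 to 80.6 CPM. The Kupffer markers' summed level was 189 to 480 CPM in MCF10A/miR-122 EV livers, against 197 to 262 CPM in PBS livers. Of the 6 tested markers 4 rose, where 8.35% of all genes did. DESeq2 called 5 of the 6 and limma-voom 3, against 20.2% and 17.5% of all genes. The part of these cells or of Saa1's response in the 2 calls was not tested. Kupffer markers did not pass with MDA-MB-231 EVs (134.5 to 225 CPM in all) or MCF10A EVs (166 to 203 CPM) by edgeR, with 2 and 1 markers at an unadjusted p under 0.05 and none called by DESeq2 or limma-voom.

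**Figure D5:**
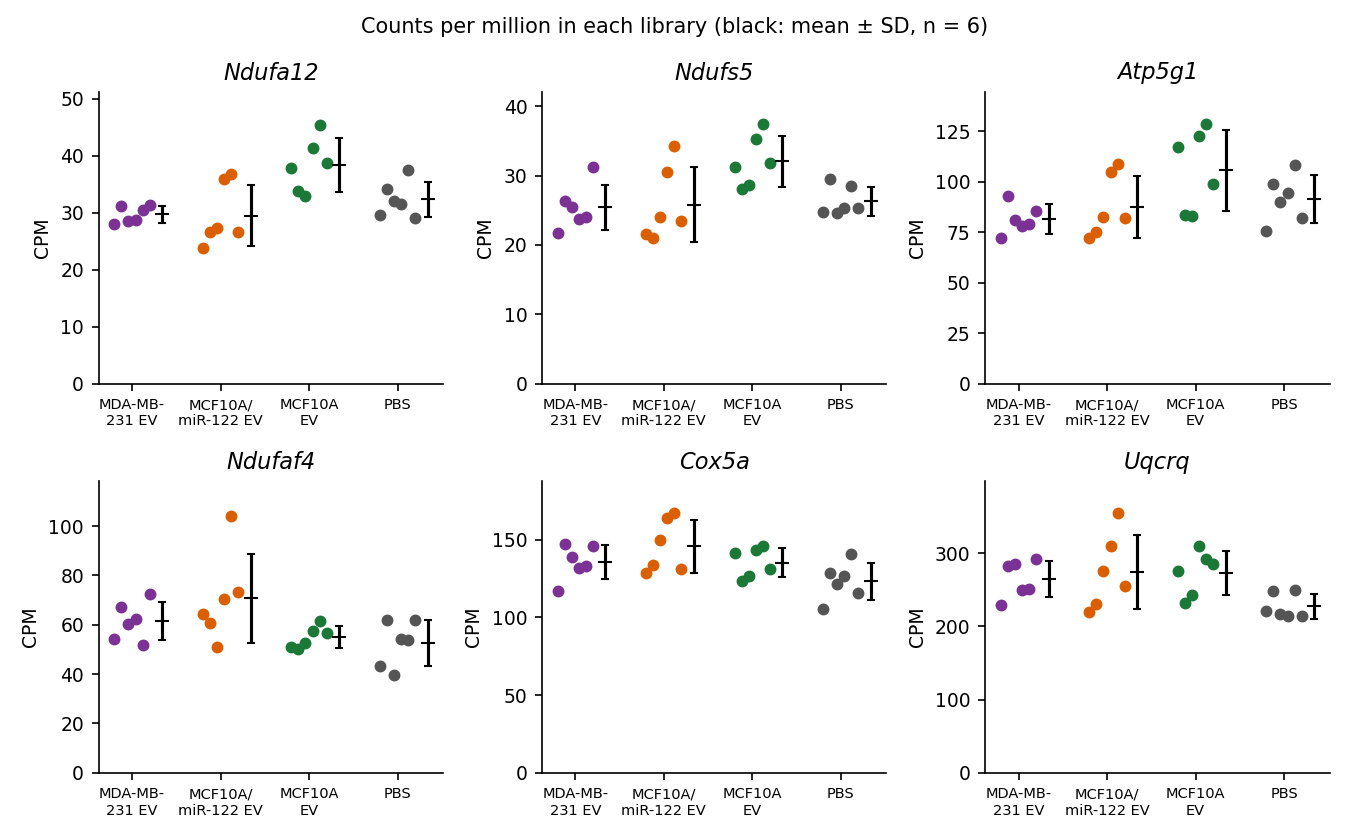
CPM in each of the 24 libraries for 6 members, in MDA-MB-231 EV, MCF10A/miR-122 EV, MCF10A EV and PBS livers from left to right, with the mean and SD (n = 6) in black. Ndufa12, Ndufs5 and Atp5g1 are highest in MCF10A EV livers, and the top point of Ndufaf4, at 104 CPM, is a single MCF10A/miR-122 EV library.

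In complex I, the 7 nuclear core subunits carry the flavin and iron-sulphur clusters, and the 29 accessory subunits surround them. Among the core genes, Ndufs8, which binds iron-sulphur clusters, had log2 fold changes against PBS of 0.20 with MDA-MB-231 EVs, 0.21 with MCF10A/miR-122 EVs and 0.21 with MCF10A EVs (adjusted p = 0.1615, 0.1161 and 0.2450). Ndufs1, the largest core subunit, had -0.012, -0.019 and -0.072. Ndufs3, Ndufs7, Ndufv1 and Ndufv2 ranged from 0.0045 (Ndufs3) to 0.17 (Ndufv2) with MDA-MB-231 EVs, from -0.011 (Ndufs3) to 0.19 (Ndufs7) with MCF10A/miR-122 EVs and from 0.057 (Ndufv1) to 0.24 (Ndufs7) with MCF10A EVs. No core gene passed the threshold. Of the accessory genes, Ndufa6 had the smallest p with MDA-MB-231 EVs, at 94.3 to 121 CPM (median 114), against 81.7 to 104 CPM (median 92.1) with PBS. All 6 EV libraries lay above the PBS median, the log2 fold change was 0.26 (SE 0.108) and the adjusted p was 0.1239.

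Complex II, succinate dehydrogenase, gave the narrowest results. Sdha, the flavoprotein that oxidises succinate, was at 338 to 458 CPM (median 425) in MDA-MB-231 EV, 329 to 455 CPM (median 427) in MCF10A/miR-122 EV, 329 to 456 CPM (median 422) in MCF10A EV and 382 to 433 CPM (median 418) in PBS livers. The 4 groups overlapped almost fully. The log2 fold changes against PBS were 0.0041 with MDA-MB-231 EVs (95% interval -0.18 to 0.18), 0.0047 with MCF10A/miR-122 EVs (-0.17 to 0.18) and -0.017 with MCF10A EVs (-0.20 to 0.16). For Sdhb, the iron-sulphur subunit, they were 0.12, 0.15 and 0.040, with 0.089 in place of 0.15 without MCF10A/miR-122 EV replicate 5. The membrane anchors Sdhc and Sdhd lay between -0.013 and 0.070. No complex II gene passed the threshold or an unadjusted p of 0.05 in any of the 6 comparisons (0 of 6 each), and DESeq2 and limma-voom called none.

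Complex III genes were higher than PBS by fold change in 8 of 8 cases with MDA-MB-231 EVs, 8 of 8 with MCF10A/miR-122 EVs and 7 of 8 with MCF10A EVs, without a call by edgeR. On plain library totals these counts were 2, 6 and 5 of 8. Uqcrq, a small subunit that sits against cytochrome b, came closest in all 3. It was at 230 to 293 CPM (median 266) with MDA-MB-231 EVs, 220 to 355 CPM (median 265) with MCF10A/miR-122 EVs and 232 to 309 CPM (median 280) with MCF10A EVs, against 213.5 to 250 CPM (median 219) with PBS. Every EV library was above the PBS median and every EV group overlapped with PBS. The log2 fold changes were 0.22, 0.27 and 0.26 (adjusted p = 0.1596, 0.06387 and 0.1841). The Rieske protein gene Uqcrfs1 had smaller fold changes than Uqcrq, at 0.041, 0.097 and 0.052. Unadjusted p under 0.05 was reached by 1, 3 and 2 of the 8 genes (12.5%, 37.5% and 25.0%, against 26.9%, 31.4% and 17.3% of all genes). Limma-voom called none, and DESeq2 called Uqcrq with MCF10A/miR-122 EVs, as edgeR did in 2 of the 12 fits that left out a library.

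In complex IV, Cox4i1, the regulatory subunit 4 of most tissues, was at 255 to 323 CPM (median 277) with MDA-MB-231 EVs, 244 to 377 CPM (median 293) with MCF10A/miR-122 EVs and 251 to 305 CPM (median 295) with MCF10A EVs, against 225 to 286 CPM (median 241) with PBS. All EV libraries exceeded the PBS median, and all ranges overlapped. Its log2 fold changes were 0.17, 0.25 and 0.18 (adjusted p = 0.2498, 0.07007 and 0.3171). Cox8a had 0.22, 0.21 and 0.19 (adjusted p = 0.1317, 0.1376 and 0.3018). Cox7a2l, which joins complexes III and IV into supercomplexes, had 0.0061, 0.058 and 0.063.

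In complex V the abundant catalytic genes did not share the lean. Atp5b was at 1056 ± 39.6 CPM in MDA-MB-231 EV, 1101 ± 67.6 in MCF10A/miR-122 EV, 1051 ± 86.2 in MCF10A EV and 1092 ± 52.1 in PBS livers (mean ± SD, n = 6 each), with log2 fold changes of -0.048, 0.013 and -0.054 against PBS (adjusted p = 0.6704, 0.9168 and 0.6928). Atp5c1, the central stalk gene, had the smallest p of the complex with MDA-MB-231 EVs, at 0.13 (SE 0.066, adjusted p = 0.2034). Atp5g2, a c subunit gene, had it with MCF10A EVs, at 63.4 to 70.4 CPM (median 69.1), against 52.9 to 65.0 CPM (median 60.5) with PBS. The log2 fold change was 0.18 (SE 0.065, adjusted p = 0.1635), and 40.12% of its 32-base words are shared with other genes.

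Between the EV groups, a single member, Ndufa12, passed the threshold, and it was lower than with MCF10A EVs in both comparisons. With MCF10A/miR-122 EVs over MCF10A EVs 16.2% of all genes passed (7.53% higher and 8.71% lower), and with MDA-MB-231 EVs over MCF10A EVs 7.68% (3.24% higher and 4.44% lower), against 1 of 84 members (1.19%) in each. Ndufa12 encodes an accessory subunit on the matrix arm of complex I. It was at 28.1 to 31.4 CPM (median 29.6) in MDA-MB-231 EV livers and 23.8 to 36.7 CPM (median 27.0) in MCF10A/miR-122 EV livers, against 32.9 to 45.5 CPM (median 38.3) in MCF10A EV livers. The MDA-MB-231 EV range lay wholly below that of MCF10A EV, and the MCF10A/miR-122 EV range overlapped with it. The log2 fold changes over MCF10A EV were -0.37 for MDA-MB-231 EV (SE 0.098, adjusted p = 0.02231) and -0.38 for MCF10A/miR-122 EV (SE 0.098, adjusted p = 0.009767). PBS livers had 29.2 to 37.5 CPM (median 31.9). Over PBS, the difference was -0.12 with MDA-MB-231 EVs (adjusted p = 0.4443), -0.14 with MCF10A/miR-122 EVs (adjusted p = 0.3654) and 0.24 with MCF10A EVs (adjusted p = 0.2014). For MCF10A/miR-122 EV the call held in all 12 fits that left out a library, but not in the fit to the 12 compared libraries alone (adjusted p = 0.05568). For MDA-MB-231 EV it held in 10 of 12, with adjusted p = 0.05307 without MCF10A EV replicate 4 and 0.05459 without MCF10A EV replicate 5. Beside the call for MCF10A/miR-122 EV, 5 of the 6 tested Kupffer markers were higher than with MCF10A EVs (189 to 480 CPM in all, against 166 to 203 CPM) and 1 of 5 cholangiocyte markers, Sox9, was lower (log2 fold change -1.05, adjusted p = 0.01143). With MDA-MB-231 EVs Sox9 had -0.86 (adjusted p = 0.05742). None of either list passed there by edgeR or limma-voom, 1 of each did by DESeq2, and 1 of each had an unadjusted p under 0.05. The part of these cells in the calls was not tested. Both comparisons cross the library sets, and 20.49% of the 32-base words of Ndufa12 are shared with another gene.

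Other members lay just short of the threshold in the same direction. Ndufs5, an accessory subunit of the intermembrane side of complex I, was at 21.7 to 31.2 CPM (median 24.7) in MDA-MB-231 EV and 21.1 to 34.3 CPM (median 23.8) in MCF10A/miR-122 EV livers, against 28.1 to 37.4 CPM (median 31.5) in MCF10A EV livers. Its log2 fold changes were -0.34 (adjusted p = 0.05947) and -0.31 (adjusted p = 0.05119). Atp5g1 was at 72.0 to 93.1 CPM (median 80.2) in MDA-MB-231 EV and 72.0 to 109 CPM (median 82.4) in MCF10A/miR-122 EV livers, against 83.1 to 128 CPM (median 108) in MCF10A EV livers. Its log2 fold changes were -0.37 (adjusted p = 0.05527) and -0.27 (adjusted p = 0.1257). In the other complexes the genes with the smallest p had adjusted p of 0.2116 or more: Sdhaf2 and Uqcrc1 for MCF10A/miR-122 EV, Sdhaf1 and Uqcrc2 for MDA-MB-231 EV, and Cox5b for both, at -0.19 and -0.18. DESeq2 placed Ndufs5 past the threshold in both comparisons and Atp5g1 in that of MDA-MB-231 EV, and it called Ndufaf4 as higher with MCF10A/miR-122 EVs (0.38, adjusted p = 0.03612). There limma-voom called Ndufs5 (-0.33, adjusted p = 0.03645) and Ndufaf1, an assembly factor of complex I (-0.20, adjusted p = 0.04978). Ndufs5, at 26.21%, and Atp5g1, at 13.92%, also share sequence with other genes. The members as a list had medians of -0.013 for MDA-MB-231 EV and 0.012 for MCF10A/miR-122 EV over MCF10A EV, with 37 and 46 of 84 above 0, with unadjusted p under 0.05 for 5 and 9 (5.95% and 10.7%, against 22.3% and 30.0% of all genes). With 1 library left out, these medians ran from -0.054 to 0.0093 for MDA-MB-231 EV and from -0.051 to 0.048 for MCF10A/miR-122 EV, on both sides of 0.

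MDA-MB-231 EV and MCF10A/miR-122 EV livers, the other comparison within a library set, had no member past the threshold by edgeR, where 0.254% of all genes passed (0.0436% higher and 0.211% lower). A single member, Atp5s (1.19% of the 84), had an unadjusted p under 0.05, against 8.19% of all genes, and DESeq2 and limma-voom called none. Atp5s, which encodes a leucine-rich repeat protein also called coupling factor B, was at 3.85 to 4.29 CPM (median 4.18) with MDA-MB-231 EVs, against 2.78 to 3.66 CPM (median 3.11) with MCF10A/miR-122 EVs. The ranges did not overlap, and the log2 fold change was 0.38 (SE 0.108, adjusted p = 0.1911). The median of the 84 members was -0.023, and it turned to 0.015 without MCF10A/miR-122 EV replicate 4 and 0.039 without replicate 5. In all, 83 of the 84 intervals lay within 1.5-fold.

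Promoter sequence was examined for motifs of factors known to act on these genes. NRF1, GABP (an ETS factor) and YY1 bind many promoters of respiratory genes, and Sp1 binds GC boxes. Windows of 250 bases before to 50 after a RefSeq start (GRCm38.p6) were matched for 72 of the 84 members. On either strand, the NRF1 core GCGCATGCG was in 12.5% of member windows, against 1.81% of all 27025 windows and 2.41% of those of protein-coding genes. The ETS core CCGGAAG was in 25.0%, against 9.12% and 11.9%, and the YY1 core ATGGCGG in 15.3%, against 4.19% and 5.41%. Of the 11 members with the YY1 letters, 9 were complex I genes. The GC box GGGCGGG was in 36.1%, against 25.8% and 34%, the CRE TGACGTCA in 5.56%, against 1.88% and 2.34%, and the E-box CACGTG in 9.72%, against 7.24% and 7.90%. Matches are letters in a window and not binding sites. A window counts once per motif, however many matches it holds.

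The 250 bases upstream of the start are shown for the 3 members called above, Ndufaf4, Cox5a and Ndufa12, and for 1 gene each of complexes II, III and V, with matches in capitals. Of these, Uqcr11 and Atp5l were picked by hand and do not stand for their complexes. NRF1 letters were in 2 of 5 matched windows of complex III and 3 of 15 of complex V, and ETS letters in 2 and 4. The sequences are given as transcribed, from RefSeq (GRCm38.p6), a build other than the mm9 of the counts. That of Ndufaf4 (chr4:24897833-24898082, + strand) holds overlapping NRF1 letters on both strands, at positions -113 and -112 from the start, and a GC box at -89. Those of Cox5a (chr9:57520982-57521231, + strand) and Ndufa12 (chr10:94198785-94199034, + strand) hold none of the 6 motifs. The windows of Sdhb (chr4:140961021-140961270, + strand), Uqcr11 (chr10:80406822-80407071, - strand) and Atp5l (chr9:44920743-44920992, - strand) hold 3 GC boxes in Sdhb, an ETS core in Uqcr11, and an NRF1 core, an ETS core and an E-box in Atp5l. The ETS letters of Sdhb and the NRF1 letters of Uqcr11 lie in the 50 bases after the start, which are not printed.
Ndufaf4: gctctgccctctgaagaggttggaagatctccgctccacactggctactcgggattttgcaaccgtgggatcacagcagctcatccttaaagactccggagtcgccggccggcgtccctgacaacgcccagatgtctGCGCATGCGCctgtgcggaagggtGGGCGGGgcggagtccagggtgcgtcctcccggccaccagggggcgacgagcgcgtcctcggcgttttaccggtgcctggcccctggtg
Cox5a: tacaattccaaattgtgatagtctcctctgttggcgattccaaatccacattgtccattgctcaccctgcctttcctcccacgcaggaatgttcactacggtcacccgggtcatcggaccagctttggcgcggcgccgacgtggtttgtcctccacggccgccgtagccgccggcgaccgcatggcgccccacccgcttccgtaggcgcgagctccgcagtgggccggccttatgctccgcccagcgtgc
Ndufa12: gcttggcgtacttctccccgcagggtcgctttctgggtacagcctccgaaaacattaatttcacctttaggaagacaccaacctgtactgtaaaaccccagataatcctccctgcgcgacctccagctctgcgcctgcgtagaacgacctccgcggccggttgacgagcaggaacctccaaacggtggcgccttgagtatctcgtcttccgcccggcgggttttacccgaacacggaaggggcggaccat
Sdhb: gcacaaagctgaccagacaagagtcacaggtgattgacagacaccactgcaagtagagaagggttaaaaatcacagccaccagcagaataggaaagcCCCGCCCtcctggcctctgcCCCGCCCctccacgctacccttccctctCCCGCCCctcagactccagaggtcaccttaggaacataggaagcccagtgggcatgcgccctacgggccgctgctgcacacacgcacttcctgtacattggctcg
Uqcr11: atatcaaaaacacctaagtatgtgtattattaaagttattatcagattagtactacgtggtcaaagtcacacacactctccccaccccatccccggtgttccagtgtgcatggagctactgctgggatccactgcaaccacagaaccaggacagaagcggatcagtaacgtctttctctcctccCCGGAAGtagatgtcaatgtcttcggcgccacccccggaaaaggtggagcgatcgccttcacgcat
Atp5l: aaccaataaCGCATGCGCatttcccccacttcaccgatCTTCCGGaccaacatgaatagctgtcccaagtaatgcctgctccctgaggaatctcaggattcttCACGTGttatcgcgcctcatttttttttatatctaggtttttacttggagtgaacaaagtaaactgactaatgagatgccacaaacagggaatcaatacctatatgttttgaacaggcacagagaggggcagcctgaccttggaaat

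Of 13 regulators of mitochondrial biogenesis, 1 rose and 1 fell with MDA-MB-231 EVs against PBS, where 11.7% of all genes passed. The gene that fell is not named here. For that comparison DESeq2 called 3 of the 13 and limma-voom 1, against 14.6% and 12.1% of all genes. With MCF10A/miR-122 EVs 2 rose and 3 fell, where 17.9% of all genes passed. None passed with MCF10A EVs by edgeR or limma-voom, and 1 did by DESeq2. An unadjusted p under 0.05 was reached by 9 of the 13 with MDA-MB-231 EVs, 6 with MCF10A/miR-122 EVs and 7 with MCF10A EVs. Of all genes, 26.9%, 31.4% and 17.3% reached it in the same order. The list had median log2 fold changes of -0.16, -0.061 and -0.059. Ppargc1a, the coactivator PGC-1alpha, averaged 15.7 CPM with MDA-MB-231 EVs and 8.57 CPM with PBS (log2 fold change 0.88, SE 0.291, adjusted p = 0.04983), and 23.8 CPM with MCF10A/miR-122 EVs (1.48, SE 0.291, adjusted p = 0.001134). Its relative Pprc1 rose with MCF10A/miR-122 EVs (0.67, adjusted p = 0.0008925), and had 0.33 with MDA-MB-231 EVs (adjusted p = 0.1040). In MCF10A/miR-122 EV livers Tfam, the packaging factor of mitochondrial DNA, fell by 0.23 on the log2 scale (adjusted p = 0.01228), and the ETS partner gene Gabpb1 fell by 0.34 (adjusted p = 0.01669). With MDA-MB-231 EVs Tfam had -0.16 (adjusted p = 0.08663) and Gabpb1 -0.27 (adjusted p = 0.06957). Nrf1 itself was at 6.18 CPM with MDA-MB-231 EVs, 6.74 CPM with MCF10A/miR-122 EVs and 7.07 CPM with MCF10A EVs, against 7.10 CPM in PBS livers (adjusted p against PBS of 0.2586, 0.6903 and 0.9842).

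Of 14 genes of the tricarboxylic acid cycle, which feeds NADH to complex I and shares succinate dehydrogenase as a source of electrons, 1 rose with MDA-MB-231 EVs against PBS and 2 with MCF10A/miR-122 EVs, and none fell, where 11.7% and 17.9% of all genes passed. Fh1, fumarase, averaged 252 CPM with MCF10A/miR-122 EVs and 180 CPM with PBS (log2 fold change 0.49, SE 0.092, adjusted p = 0.0007787), and had 0.20 with MDA-MB-231 EVs (adjusted p = 0.1597). Suclg2, a subunit of succinyl-CoA ligase, rose by 0.30 (adjusted p = 0.003598) with MCF10A/miR-122 EVs and by 0.26 (adjusted p = 0.01401) with MDA-MB-231 EVs. With MCF10A EVs none of the 14 passed by edgeR, DESeq2 or limma-voom, and 1 had an unadjusted p under 0.05. Of 12 complex IV assembly genes tested, 1 fell against MCF10A EVs with both other EVs. Of all genes, 16.2% passed there with MCF10A/miR-122 EVs and 7.68% with MDA-MB-231 EVs. This gene, Sco2, a copper chaperone, fell by 0.78 with MCF10A/miR-122 EVs (adjusted p = 0.0001201) and by 0.60 with MDA-MB-231 EVs (adjusted p = 0.003498). Its mean was 128 CPM in MDA-MB-231 EV, 112 CPM in MCF10A/miR-122 EV, 193 CPM in MCF10A EV and 142 CPM in PBS livers. Of 4 assembly and inhibitor genes of the synthase tested, 1 fell with MCF10A/miR-122 EVs against PBS, where 17.9% of all genes passed. This was Atpaf1, an assembly factor, which fell by 0.38 (adjusted p = 0.02515) and had -0.24 with MDA-MB-231 EVs (adjusted p = 0.1855).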

How the data were processed

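The authors deposited a table of whole-number read counts per gene, 1 column per library, with 23240 rows. Base calls came from bcl2fastq 2.18.0.12 and reads were placed on mm9 with TopHat2, per the submitters' processing notes, and libraries came from a stranded mRNA kit, per the labels. No source used here gives the counting tool, annotation or strand setting, so overlapping and multi-copy genes may share reads. Library totals ran from 21.3 to 33.7 M counts, and each group has 6 libraries. The labels do not state that each library is a separate mouse, so p-values measure the spread between these libraries. No libraries were identical.

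The counts of all 24 libraries were fitted together in edgeR 4.0.16 (R 4.3.3) with trimmed-mean scaling, its filter on low counts by group and quasi-likelihood tests, with Benjamini-Hochberg adjustment over 13773 genes and a threshold of 0.05. Levels are scaled CPM. DESeq2 1.42.0 and limma-voom (limma 3.58.1), other scalings and filters, fits to 12 libraries, the library names' identities, a replicate block and leaving out each library were alternatives. Tested on simulated counts for MCF10A/miR-122 EV over PBS (13756 genes), the fit recovered 12% of genes changed 1.2-fold, 54% at 1.5-fold and 84% at 2-fold, and 5.34% of its calls were false. The simulation changed randomly drawn genes and gave 131 calls, against 2463 in the data. Its adjusted threshold thus differs, and it does not give the recovery for the members. Genes with 10% or more of their 32-base words in another gene (33 members) count as multi-copy. Names, lengths and sequences came from GENCODE M21 and RefSeq.

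The members and lists were chosen with earlier results of these data known. Named members are those past the threshold or with the smallest p in a complex and comparison, the highest per complex, isoform sets, complex I core and complex II subunits and those at the minimum, with up to 2 genes past the threshold per other list. Ndufb8, Saa1, Nrf1, Tfam, Gabpb1 and the per-kb maxima were named after their values were seen. Uqcr11 and Atp5l were picked by hand for the printed sequences. The values of 1 member that the naming rule covers are not reported here.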

Additional observations from a re-analysis of the deposited data

Results flagged for a closer look

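Single libraries stood apart from the other 5 of their group in 6 of the 156 gene groups and 24 summary groups examined; chance flags about 1 in 20 groups. Sdhaf1 was lowest in PBS replicate 3, at 4.599 CPM with the nearest library at 7.692. Ndufaf1 was highest in MCF10A/miR-122 EV replicate 4, at 26.51 CPM with the nearest at 21.67, and Ndufa4 in PBS replicate 5, at 216.4 CPM with the nearest at 197.9. Atp5a1, the alpha subunit of the ATP synthase, was lowest in MDA-MB-231 EV replicate 6, at 739.3 CPM with the nearest at 847, and highest in MCF10A EV replicate 1, at 912.2 CPM with the nearest at 821.2. In that last library Ndufv1 was also highest, at 169.1 CPM with the nearest at 153.3.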

How the results depend on the processing

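With MCF10A/miR-122 EVs over PBS (2 members called), DESeq2 called 5, the 12 compared libraries alone 0, the library names' identities 0, structural subunits 1 and members without multi-copy genes 1; leaving out a library gave 0 to 11. With MDA-MB-231 EVs over PBS (0 called), 12 libraries gave 1 and the library names 2. Over MCF10A EVs, MCF10A/miR-122 EVs (1 called) had 3 on library totals, 4 with a stricter filter, 3 by DESeq2, 3 by limma-voom, 0 with 12 libraries, 4 with the replicate block and 0 without multi-copy genes, and 1 to 6 with a library left out (6 without MCF10A/miR-122 EV replicate 5). MDA-MB-231 EVs over MCF10A EVs (1 called) had 3 on library totals, 3 with a stricter filter, 3 by DESeq2, 4 with 12 libraries, 3 with the replicate block and 0 without multi-copy genes, and 0 to 3 with a library left out. Of all genes, DESeq2 called 20.2% for MCF10A/miR-122 EVs over PBS. Over MCF10A EVs it called 18.5% for MCF10A/miR-122 EVs and 10% for MDA-MB-231 EVs. On library totals the latter 2 shares were 15.1% and 7.3%, and limma-voom called 16.2% for MCF10A/miR-122 EVs over MCF10A EVs. The shares of all genes in the other settings are not given here. The causes were not tested. The 2 other comparisons stayed at 0 throughout. The library names' identities turned the sign of Atp5s for MCF10A/miR-122 EV over PBS (0.1197) and, by their construction, in the comparison of MDA-MB-231 EVs with MCF10A/miR-122 EVs, for Ndufaf1 (-0.1426), Sdhaf1 (0.1328), Uqcrfs1 (0.05586), Cox5a (0.1033) and Atp5s (-0.3786). Library totals turned Sdhb for MDA-MB-231 EV over PBS (-0.004736). Replicate numbers did not pair the libraries: 13 of 36 same-numbered pairs had a correlation over 0.1 (median 0.0186), and 4 of 24 libraries correlated best with their own number. In the simulated counts, where randomly drawn genes were changed, 12% of 1.2-fold changes were recovered. Recovery for the members, and its dependence on depth, were not tested.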
